A study of Mus musculus with 12 samples.

Results

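Haemoglobin and red cell genes were followed on 12 arrays of mouse heart, as a gauge of the blood left in the tissue. The set was 7 genes, namely Hba-a1, Hbb-b1, Hbb-b2, Alas2, Slc4a1, Ahsp and Bpgm, read by every non-control probe that the scanner files name for them. These were 7 of the 37074 gene names on the array and 8 of its 56605 probes, with 2 for Hba-a1 and 1 for each of the other genes. Of these probes 7, standing for 6 genes, were among the 30859 probes with enough signal to be tested, and the Ahsp probe was not. The genes were chosen by their log2 signal in the 4 groups of these same arrays, so their values are a description and carry no test.

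Heart muscle came from male C57BL6/J mice aged 5 months, with 1 mouse per array and 3 mice in each of 4 groups. Control mice (C) received vehicle only, and the diabetic mice (D), also on vehicle, had been injected on 5 days with 50 mg/kg streptozotocin, which destroys the β-cells of the pancreas, and were counted as diabetic by their blood glucose. Pargyline, an inhibitor of monoamine oxidase, was dosed daily at 50 mg/kg over 12 weeks in controls (C + P) and diabetic mice (D + P). One slide held all arrays of C and D and the other all arrays of C + P and D + P, so slide and pargyline cannot be told apart, and within each slide the non-diabetic arrays lay in 1 row and the diabetic arrays in the other. Whether blood was flushed from the hearts before extraction is not given in the sources used here.

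Red cells carry oxygen on haemoglobin, a protein of α-globin and β-globin chains that each hold a haem group. A mature mammalian red cell has no nucleus, but the youngest red cells in the blood, the reticulocytes, still hold globin messenger RNA, so a heart that keeps blood in its vessels yields globin signal. Heart muscle stores oxygen on myoglobin, which is the product of a separate gene. In bulk tissue, fewer red cells and less RNA per red cell cannot be told apart.

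The heart muscle genes Myh6, Actc1, Tnnt2, Tnni3, Myl2 and Ryr2 were well above background on all 12 arrays. Of the 59305 non-control spots on an array, between 23556 and 29231 were well above background and 0 were saturated, the bright globin spots included. The median coefficient of variation (CV) of probes spotted 10 times or more lay between 3.72% and 8.36% on 8 arrays, was higher on D + P replicate 3, and was 14.3% on C + P replicate 1, 14.9% on D + P replicate 1 and 23.0% on D replicate 1. The number of arrays, 3 a group, limits the precision of every group value.

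What each probe reads matters for the globins, since they belong to families of near-identical copies. The 2 Hba-a1 probes start at positions 161 and 499 of the transcript and lie at chr11:32183955-32184014 and chr11:32184427-32184486 of mm9, the build of the files. The probe at 499 shares a run of 59 of its 60 bases with the probe of the neighbouring copy Hba-a2, so the signal of either cannot be given to 1 copy. The 60 bases of 3 probes that the values below rest on are shown first, because each is the transcript stretch that was measured. Those of Hbb-b2 and Ahsp have no position in the file's mm9 annotation.

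Hba-a1, probe at 161: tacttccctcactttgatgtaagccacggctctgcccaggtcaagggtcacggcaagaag
Hbb-b2: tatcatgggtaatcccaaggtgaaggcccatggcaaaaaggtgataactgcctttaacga
Ahsp: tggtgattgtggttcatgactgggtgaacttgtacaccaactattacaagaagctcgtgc

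C57BL6/J mice carry the β-globin copies Hbb-bs and Hbb-bt, whereas Hbb-b1 and Hbb-b2 are the copies of other strains. The Hbb-b1 probe, at chr7:110976379-110976438 of mm9, starts at position 5 of the transcript and was set against the first transcribed bases of both copies in RefSeq GRCm38.p6. Over the 46 bases that could be compared it had 0 mismatches to Hbb-bs, and over 45 bases it had 7 mismatches to Hbb-bt. Its first 30 bases are printed with those of both copies, and capitals mark the positions where the 3 sequences are not all alike.

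Hbb-b1 probe: tttgcttctgaCATAgttgtgttgactCAc
Hbb-bs: tttgcttctgaCATAgttgtgttgactCAc
Hbb-bt: tttgcttctgaTTCTgttgtgttgactTGc

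The probe named Hbb-b1 therefore matched Hbb-bs in the bases compared. No sequence of the Hbb-bt coding part was used here, so which copy the Hbb-b2 probe reads in this strain is uncertain.

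Globin genes and the haem enzyme gene Alas2 are known targets of GATA1, which binds around the letters GATA, and of KLF1, which binds CACCC boxes. The 250 bases before the start of transcription were taken from RefSeq GRCm38.p6 for the members the table holds, and for Hbb-bs and Hbb-bt. Capitals mark GATAA and CACCC on either strand, the reverse strand reading TTATC and GGGTG, and no 2 matches overlap. Over all 32851 promoter windows of that length, 22.6% hold GATAA, 52% hold CACCC and 10.1% hold both.

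Hba-a1, chr11:32283422-32283671, plus strand: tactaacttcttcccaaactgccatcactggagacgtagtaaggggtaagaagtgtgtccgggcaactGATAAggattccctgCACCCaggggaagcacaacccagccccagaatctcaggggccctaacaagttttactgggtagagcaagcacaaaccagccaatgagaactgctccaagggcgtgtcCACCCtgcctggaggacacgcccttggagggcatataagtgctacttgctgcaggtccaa
Hbb-bs, chr7:103827929-103828178, minus strand: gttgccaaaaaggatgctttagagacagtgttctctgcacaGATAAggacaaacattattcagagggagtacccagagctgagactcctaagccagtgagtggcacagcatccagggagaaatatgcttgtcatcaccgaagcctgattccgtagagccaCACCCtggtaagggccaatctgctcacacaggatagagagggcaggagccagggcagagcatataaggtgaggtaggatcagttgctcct
Hbb-bt, chr7:103813924-103814173, minus strand: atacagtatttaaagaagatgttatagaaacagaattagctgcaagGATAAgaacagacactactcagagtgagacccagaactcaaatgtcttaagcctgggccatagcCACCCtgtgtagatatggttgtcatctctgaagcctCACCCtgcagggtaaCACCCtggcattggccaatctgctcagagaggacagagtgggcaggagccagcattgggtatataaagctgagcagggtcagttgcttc
Alas2, chrX:150547167-150547416, plus strand: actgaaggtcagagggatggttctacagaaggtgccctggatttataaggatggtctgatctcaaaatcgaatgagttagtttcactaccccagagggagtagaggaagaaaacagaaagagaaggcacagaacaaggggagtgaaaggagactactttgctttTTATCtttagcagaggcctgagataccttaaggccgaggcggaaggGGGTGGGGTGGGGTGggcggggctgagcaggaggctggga

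All 4 windows hold both motifs. GATAA stands once in each, beginning 182 bases before the start in Hba-a1, 209 in Hbb-bs, 204 in Hbb-bt and, on the reverse strand, 86 in Alas2. CACCC stands 2 times in Hba-a1, 1 time in Hbb-bs, 3 times in Hbb-bt and 3 times in a row in Alas2, on its reverse strand from 40 to 30 bases before the start. The window of Bpgm, a gene of glycolysis, holds 0 matches of either motif. Slc4a1 and Ahsp are named only. These matches describe the letters and are no evidence of binding.

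The α-globin signal was nearly level across the 4 groups. Quantile-normalised log2 signal of the Hba-a1 probe at 499 was 17.08, 17.10 and 16.92 in C, 17.28, 16.76 and 16.99 in C + P, 17.06, 16.97 and 17.19 in D, with 17.00, 17.00 and 16.94 in D + P. The highest and the lowest value of the 12 both belong to C + P. Group means ± SD (n = 3) were 17.07 ± 0.11 in D, 17.03 ± 0.10 in C, 17.01 ± 0.26 in C + P and 16.98 ± 0.03 in D + P, in falling order, and no neighbours in that order differ by more than their SD.

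The Hba-a1 probe at 161 read 15.65, 15.42 and 15.06 in C, 15.54, 15.02 and 15.38 in C + P, 15.36, 15.26 and 15.61 in D, with 15.37, 15.37 and 15.62 in D + P. All groups overlap. Both probes of the gene had 10 spots on each array, so their technical error was measured: within an array the SD between spots of the probe at 161 was 0.04 to 0.25 on the log2 scale and that of the probe at 499 was 0.06 to 0.18, after 0 to 2 spots with an outlier flag were left out. The pooled SD between mice of a group was 0.23 and 0.15 for the 2 probes, beside a median of 0.34 over all tested probes. Most other probes had 1 spot, so these SDs are not like for like.

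The order of groups was not the same for the 2 Hba-a1 probes. At 161 the means fell from D + P (15.45 ± 0.15) to D (15.41 ± 0.18), C (15.38 ± 0.30) and C + P (15.32 ± 0.27), whereas D + P was lowest at 499. Across the 12 arrays the probes correlated at r = 0.71, and at 0.77 after the group means were taken out, given as a description of points that share arrays and scaling. Scaling by the 75th percentile of each array in place of quantile normalisation moved the change of Hba-a1 in C + P versus C from -0.03 to 0.26 and that in D versus C from 0.04 to 0.23, so no direction can be given to α-globin in these comparisons. Under that scaling the median change over all tested probes was 0.02 in C + P versus C and 0.03 in D versus C, beside -0.01 in both with quantile normalisation.

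Hbb-b1, a β-globin chain gene, read 11.17, 11.28 and 11.01 in C, 11.24, 10.84 and 11.35 in C + P, 10.75, 11.51 and 11.79 in D, with 11.15, 11.24 and 11.57 in D + P. The D mice spanned the whole range of the gene, from D replicate 1 at the bottom to D replicate 3 at the top. Group means were 11.35 ± 0.54 in D, 11.32 ± 0.22 in D + P, 11.15 ± 0.14 in C and 11.14 ± 0.27 in C + P, and all groups overlap.

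Hbb-b2, the other β-globin member, read 13.77, 13.63 and 13.24 in C, 13.69, 13.19 and 13.60 in C + P, 12.57, 13.34 and 13.83 in D, with 12.57, 13.35 and 13.47 in D + P. D replicate 1 and D + P replicate 1 stood apart, below the other 10 arrays, which started at 13.19. Group means fell from 13.54 ± 0.27 in C to 13.50 ± 0.27 in C + P, 13.24 ± 0.64 in D, then 13.13 ± 0.49 in D + P, with steps smaller than the SD. Those 2 arrays had a repeated-spot CV of 23.0% and 14.9%, and C + P replicate 1, with a CV of 14.3%, read 13.69. The part of spot quality in these values was not tested. The Hba-a1 probes on the same 2 arrays read 15.36 and 15.37 at 161, and 17.06 and 17.00 at 499, within the range of the other arrays. Without D replicate 1 the change of Hbb-b2 in D versus C went from -0.30 to 0.04, and without D + P replicate 1 that in D + P versus C + P went from -0.37 to -0.09.

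Hba-a2 and Hbb-bt, globin genes outside the member list, were tested and did not pass the threshold in any contrast. Hba-a2 lay between 16.69 and 17.14 on all arrays, with a largest change between 2 groups of -0.11 ± 0.15 (SE) in C + P versus C. Hbb-bt lay between 15.10 and 15.65, with a largest change between 2 groups of -0.22 ± 0.19 in D + P versus C + P. The smallest adjusted p of limma over the 6 contrasts was 0.90 for Hba-a2 and 0.65 for Hbb-bt.

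**Figure D1:**
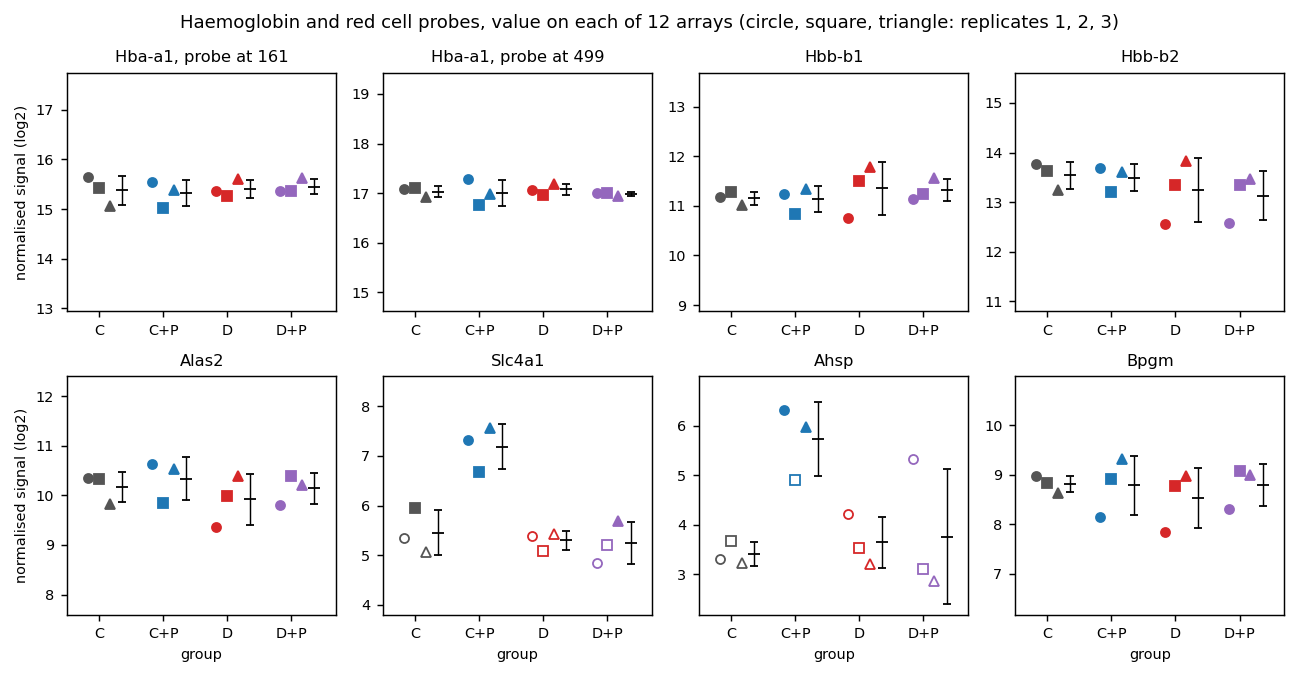
Normalised log2 signal of the 8 member probes on 12 arrays by group (grey C, blue C + P, red D, purple D + P), each panel spanning the same number of log2 units; filled points are well above background on that array, open points are not, and black bars are the group mean ± SD. The Hba-a1 panels span 0.63 and 0.52 log2 units over all arrays and the β-globin panels 1.04 and 1.26, with overlapping groups, while the 3 blue points of Slc4a1, at 6.68 to 7.56, stand above the 9 others, which reach 5.94.

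Alas2, the erythroid form of 5-aminolevulinate synthase, carries out the first step of haem synthesis in red cell precursors. Its probe (chrX:147004993-147005052, mm9) read 10.36, 10.34 and 9.82 in C, 10.63, 9.85 and 10.54 in C + P, 9.37, 9.99 and 10.40 in D, with 9.81, 10.40 and 10.21 in D + P. The lowest value was again D replicate 1, and all groups overlap. Means fell from 10.34 ± 0.42 in C + P to 10.17 ± 0.31 in C, 10.14 ± 0.30 in D + P and 9.92 ± 0.52 in D, with no step larger than the SD of its neighbours. The change was -0.25 ± 0.31 (SE) in D versus C, and 0.03 without D replicate 1.

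Bpgm makes 2,3-bisphosphoglycerate, the small molecule that lowers the oxygen affinity of haemoglobin. Its probe (chr6:34454792-34454851, mm9) read 8.97, 8.84 and 8.64 in C, 8.15, 8.91 and 9.32 in C + P, 7.84, 8.77 and 8.97 in D, with 8.30, 9.08 and 8.99 in D + P. The 3 lowest values were replicate 1 of D, of C + P and of D + P, the 3 arrays with a CV of 14.3% to 23.0%. Group means lay within 8.53 and 8.81 with SDs of 0.17 to 0.60, and all groups overlap.

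Slc4a1 behaved unlike the globins. It encodes band 3, the anion exchanger and most abundant membrane protein of red cells, and its probe lies at chr11:102210256-102210315 of mm9. It read 7.32, 6.68 and 7.56 in C + P, against 5.35, 5.94 and 5.07 in C, 5.38, 5.09 and 5.43 in D, with 4.85, 5.21 and 5.69 in D + P. All 3 pargyline-treated controls were above the 9 other mice, and the other groups overlap. Of the 30859 tested probes, 387, or 1.26%, had all 3 C + P arrays above the other 9.

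The change of Slc4a1 was 1.73 ± 0.30 (SE) in C + P versus C and -1.94 ± 0.30 in D + P versus C + P, and did not pass the adjusted threshold across all probes in any of the 6 contrasts. Groups not overlapping in the same direction were found for 7.35% of tested probes in C + P versus C and for 6.57% in D + P versus C + P. The signal was weak: it was well above background on all 3 C + P arrays but on 1 array each of C and D + P, so the sizes of these 2 changes are uncertain, and on 0 of D, against which the C + P mean was at least 3.37-fold higher. C, D and D + P were mostly at background, and no order between them can be read. The separation of C + P from the other 9 arrays held with 75th percentile scaling, with normexp background correction and in the deposited normalised table. With normexp, which adds an offset and so shrinks dim probes, the changes were 0.98 in C + P versus C and -0.93 in D + P versus C + P.

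Ahsp, the chaperone that holds free α-globin chains soluble, also had its highest mean in C + P, at a still lower signal. It read 6.32, 4.90 and 5.97 in C + P, 3.31, 3.68 and 3.23 in C, 4.22, 3.53 and 3.21 in D, with 5.32, 3.10 and 2.87 in D + P. It was well above background on 2 arrays, replicates 1 and 3 of C + P, and on 0 of the other 10. Since D + P replicate 1 was above C + P replicate 2, the groups D + P and C + P overlap. Taking the dimmer group at the lowest signal that counts as well above background, and C + P replicate 2, itself not well above background, at its measured value, the C + P mean was at least 1.88-fold higher than C, at least 1.27-fold higher than D and at least 1.56-fold higher than D + P.

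Values of neutrophil and platelet genes in C + P stand beside those of Slc4a1 and Ahsp. Of 7 tested neutrophil genes, 7 had a positive change in C + P versus C, 0 passed the adjusted threshold of limma and 3 had an unadjusted p under 0.05, which 4.43% of all tested probes had. The S100a8 mean went from 5.39 in C to 7.47 in C + P (adjusted p of limma 1.0), and that of S100a9 from 7.57 to 9.53 (adjusted p 0.53). On each array the median over the 7 neutrophil genes, after the mean of each gene was taken off, was 0.25 to 0.78 in C + P and -0.27 to 0.14 in the other 3 groups, and the neutrophil granule genes Ngp, Ltf, Mmp8 and Mmp9 were well above background on 0 arrays, Camp on 1, Mpo on 4, Lcn2 on 11 and Elane on 12. Il1b was well above background on 2 arrays, both of C + P. Retnlg was so on 1 array, of D + P, and peaked at 6.90 on D + P replicate 2. Its mean was 4.85 in D + P and 4.25 in C + P, and Cxcr2 was well above background on 0 arrays. The summed signal of the 14 listed neutrophil genes, nearly all of it from Csf3r, was 15.07 to 15.63 on the log2 scale in C + P, 15.32 to 15.45 in C, 14.44 to 15.20 in D and 15.24 to 15.56 in D + P. Of 9 tested platelet genes 8 had a positive change in C + P versus C and 0 passed, with a median of 0.58, and their median on an array was 0.32 to 0.79 in C + P and -0.52 to 0.12 in the other groups. Car2, a carbonic anhydrase of red cells and of other tissues, was 5.45 to 6.07 in C and 6.65 to 7.11 in C + P, a change of 1.05 ± 0.21 (SE) with an adjusted p of limma of 0.36. The part that neutrophil or platelet RNA had in the Slc4a1 and Ahsp values was not tested.

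**Figure D2:**
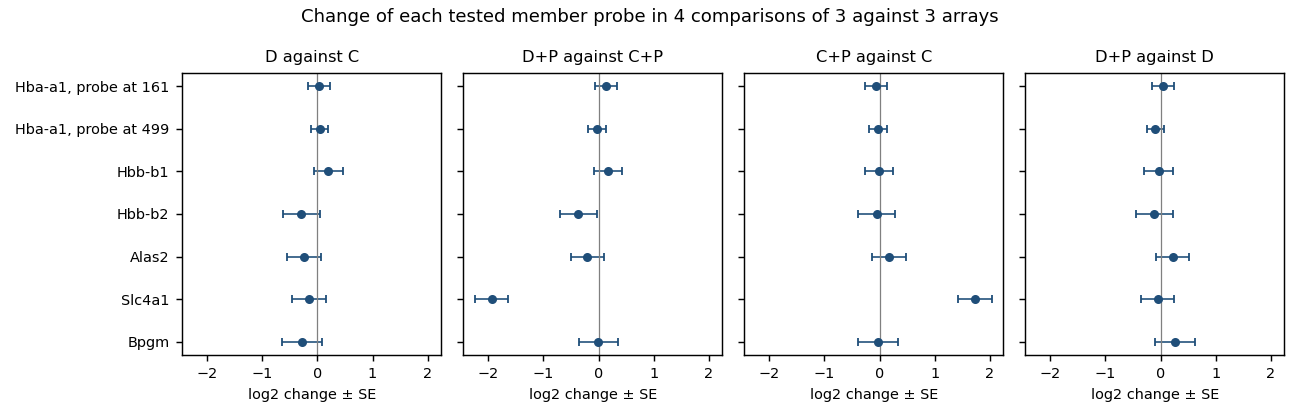
Log2 change ± SE (limma, 3 against 3 arrays) of the 7 tested member probes, 1 panel for each comparison, with the grey line at no change. Globin, Alas2 and Bpgm probes lie within 0.37 of 0 in every panel, and Slc4a1 stands at 1.73 in C + P versus C and -1.94 in D + P versus C + P.

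Over the 6 tested member genes, taking the probe with the higher mean for Hba-a1, the median change was -0.20 in D versus C, -0.11 in D + P versus C + P, -0.02 in C + P versus C and -0.04 in D + P versus D. The pooled SD between mice of this median was 0.31, larger than each of these values. Over all tested probes the median change was -0.01, 0.01, -0.01 and -0.00 in the same comparisons. Without D replicate 1 the median of D versus C was 0.04, so its sign rested on that array.

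Of the member probes 0 passed the adjusted threshold in any contrast. The share of all tested probes that passed was 0.00648% in D versus C (2 probes), 0.0454% in D + P versus C + P (14), 0.107% in the mean of both diabetes contrasts (33), 0.0324% in C + P versus C (10) and 0.00648% in the interaction (2). In D + P versus D limma called 0 probes, 0%, with 4099 at an unadjusted p under 0.05. Against shares this small, 0 of 7 probes says nothing about the members.

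To follow blood content by array, a haemoglobin index was formed as the mean over Hba-a1 at 499, Hbb-b1 and Hbb-b2 of the log2 signal less the mean of that probe over 12 arrays. It was 0.13, 0.13 and -0.15 in C, 0.20, -0.28 and 0.11 in C + P, -0.41, 0.07 and 0.40 in D, and -0.30, -0.01 and 0.12 in D + P. The lowest and the highest hearts are both from D. Group means ± SD were 0.04 ± 0.16, 0.01 ± 0.25, 0.02 ± 0.41 and -0.06 ± 0.22 in the same order, so the groups differ by less than the spread within any of them. With both Hba-a1 probes in the index the largest difference between groups compared was -0.05, in D + P versus D, and with Hba-a1 alone it was -0.09 in the same comparison.

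The index mostly followed Hbb-b2 (r = 0.92) and less so Hba-a1 at 499 (r = 0.57), 2 of the probes it is made of. Alas2, which is no part of it, correlated with the index. Pearson's r over 12 arrays was 0.86 and Spearman's rho 0.77, with r = 0.94 on the slide of C and D, 0.92 on that of C + P and D + P, and 0.96 after the group means were taken out. Without the 2 arrays farthest from the median index, D replicate 1 and D + P replicate 1, r was 0.73. These correlations describe points that share array, labelling and scaling, and of the probes within the index Hbb-b2 correlated with Alas2 at 0.87, Hbb-b1 at 0.62 and Hba-a1 at 0.49. For Bpgm r fell from 0.52 to -0.02 without those 2 arrays, and for Slc4a1 from 0.24 to 0.01, while after the group means were taken out r over 12 arrays was 0.56 for Bpgm and 0.58 for Slc4a1.

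Other globin probes were weaker followers over all arrays but not without those 2. Hba-a2 had r = 0.45 with the index over 12 arrays and 0.87 without D replicate 1 and D + P replicate 1, and Hbb-bt had 0.60 and 0.80. The Hba-a2 probe shares nearly all its bases with the Hba-a1 probe at 499, so its r is partly that of a measurement with itself. Myoglobin, the oxygen store of heart muscle, went the other way, from 0.65 to -0.09. On the 2 arrays left out the single-spot Hbb-b2 probe was low while the 10-spot Hba-a1 probes were not, and the part of spot quality in this was not tested.

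**Figure D3:**
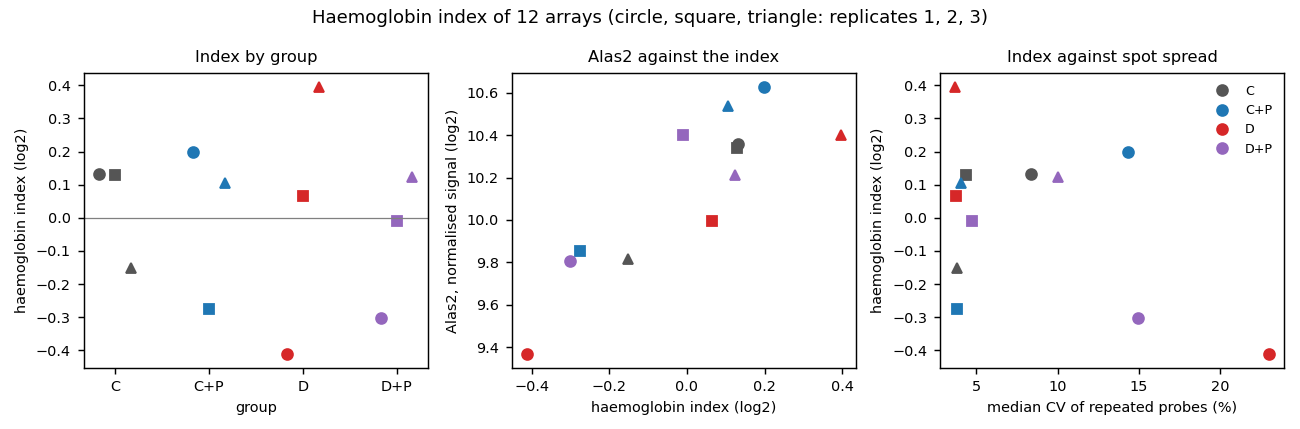
Haemoglobin index of each array by group, log2 signal of Alas2 against the index, and the index against the median CV of repeated probes (%), with 1 point for each of 12 arrays. Groups overlap in the index, Alas2 rises with it, and the lowest index, -0.41, belongs to the array with the CV of 23.0%.

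Among 14264 genes with a tested probe well above background on at least 6 arrays, members left out, the 10 whose pattern over 12 arrays was most like the index were Rptor (r = 0.90), Gmcl1 (0.88), Ly6g6d (0.87), Adh1 (0.86), Atad3a (0.86), Asah2 (0.86), Lsp1 (0.85), Hand2 (0.85), Gosr2 (0.85) and Lrfn3 (0.85). No gene of the red cell lists is among them. Without the 2 farthest arrays their r was 0.68 to 0.82, and within the slides it was 0.70 to 0.98. Of the 24822 probes so detected, members and probes with no gene name included, 51 had r over 0.8, and the median r was 0.02. Over the tested genes of the red cell lists r ran from -0.66 for Epb41 to 0.71 for Tspo2, and it was negative for many of them. Without the 2 farthest arrays Epb41 had -0.21 and Tspo2 0.64.

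With the index as a covariate in the fit, the probes passing the threshold went from 2 to 0 in D versus C, from 14 to 13 in D + P versus C + P (11 shared), from 33 to 24 in the mean of both diabetes contrasts (18 shared), from 10 to 6 in C + P versus C (6 shared), and stayed at 0 in D + P versus D and at 2 in the interaction (2 shared). In D versus C limma with the index had 3929 probes at an unadjusted p under 0.05, and 3332 without it. In D + P versus D the same numbers were 4499 and 4099.

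Other red cell genes were counted in 4 lists, of other globins, of the membrane and its skeleton, of reticulocytes and late erythroid cells, and of erythroid regulators. Of 60 listed genes 59 were on the array and 40 were tested. In each of the 6 contrasts limma called 0 of the 40. An unadjusted p under 0.05 was found for 4 genes in D versus C, 4 in D + P versus C + P, 5 in the mean of both diabetes contrasts, 2 in C + P versus C, 2 in D + P versus D and 3 in the interaction. Over all tested probes that share was 10.8%, 7.46%, 11.4%, 4.43%, 13.3% and 7.03% in the same order. The median change of the 40 genes was 0.07 in D versus C, -0.03 in D + P versus C + P and -0.01 in C + P versus C, beside -0.01, 0.01 and -0.01 over all tested probes.

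Erythroid genes differed in whether they were detected. Among those not well above background on any array were the membrane protein gene Epb42, the Rh-associated glycoprotein gene Rhag, the ubiquitin ligase gene Trim10, and the regulators Gata1 and Gfi1b. The regulators Klf1 and Tal1, the Rh antigen gene Rhd and the spectrin gene Sptb were well above background on all 12 arrays. Embryonic globins were dim. Hbb-y was well above background on 1 array, C replicate 2, at 7.56, and Hba-x on 1 array, C replicate 3, at 5.40. The 3 probes of highest mean in each red cell list had group means of 17.13 to 17.34 for Mb, 13.66 to 14.26 for the water channel gene Aqp1, 13.21 to 13.34 for the ankyrin gene Ank1, 12.44 to 12.53 for Epb41, 13.48 to 13.75 for the peroxiredoxin gene Prdx2, 12.35 to 12.87 for Hemgn, 12.02 to 12.17 for Fech, 10.49 to 10.65 for Zfpm1, 9.70 or more for Lmo2 and 8.62 to 8.85 for Ldb1, besides Hba-a2 and Hbb-bt. Many of these, such as Mb, Aqp1 and Ank1, are also expressed by heart muscle or vessels.

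Epor, the erythropoietin receptor gene, came closest to the threshold of the 40. Its log2 signal was 7.48, 7.47 and 7.12 in C, 7.88, 7.92 and 7.61 in D, 6.90, 7.22 and 6.78 in C + P, with 8.20, 7.97 and 8.13 in D + P. Every diabetic heart was above every non-diabetic heart of the same treatment, and the share of all tested probes that did the same was not counted. The change averaged over both diabetes contrasts was 0.79 ± 0.12 (SE) with an adjusted p of limma of 0.0534. Its r with the index was -0.23.

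Genes that make haem and those that clear it did not pass the test in any contrast, 0 of 13 and 0 of 12 tested, with 0 to 3 of each list in 1 direction at an unadjusted p under 0.05. Among the haem synthesis genes of highest mean, Alas1, the housekeeping form of the enzyme that Alas2 encodes, had group means of 13.34 to 13.82, Tmem14c of 12.94 to 13.48 and Urod of 12.23 to 12.72. Among the clearance genes, ferritin heavy chain Fth1 had group means of 16.23 to 16.38, ferritin light chain Ftl1 of 14.84 to 15.46 and haem oxygenase Hmox2 of 10.67 to 10.87. Cd163, the macrophage receptor for haptoglobin with haemoglobin, had a mean diabetes change of -0.96 with an adjusted p of limma of 0.11.

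Platelets also come with blood, and 1 of their 9 tested genes passed the threshold, while 8 did not. Ppbp, a chemokine of platelet granules, changed by -3.18 ± 0.42 (SE) on the log2 scale in D + P versus C + P (adjusted p of limma 0.0336), and its mean change over both diabetes contrasts was -2.11 ± 0.30 (adjusted p 0.0418). It read 7.00, 7.87 and 7.47 in C, 8.44, 8.67 and 7.52 in C + P, 6.08, 6.55 and 6.59 in D, with 5.46, 5.53 and 4.11 in D + P. Every diabetic heart was below every non-diabetic heart. Of all tested probes 6.57% had every D + P array below every C + P array, and the share with all 4 groups so parted was not counted. In D + P Ppbp was well above background on 1 array of 3, so the size of the change is uncertain. The call needed nearly all arrays: without any 1 array other than D + P replicate 1 the adjusted p was 0.0563 to 0.175, with the replicate number as a block it was 0.0504, and with the haemoglobin index as covariate it was 0.0571 with a change of -3.20. Under the other alternatives run for this gene it was 0.0106 to 0.0397, and with normexp the change itself was -1.82.

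Of 9 platelet genes tested, 0 rose and 1, Ppbp, fell in D + P versus C + P, the same as in the mean of both diabetes contrasts, and 5 had a negative change with an unadjusted p under 0.05 in each, which 7.46% and 11.4% of all tested probes had in either direction. Gp9, a part of the receptor for von Willebrand factor, was well above background on 3 arrays of C + P and 0 of D + P, with a C + P mean at least 3.51-fold higher (adjusted p of limma 0.082), and the receptor gene Clec1b, on 3 and 0 arrays, had one at least 2.88-fold higher (adjusted p 0.16). The integrin gene Itgb3 had means ± SD of 7.49 ± 0.23 in C + P and 6.30 ± 0.09 in D + P (adjusted p of limma 0.11), and Pf4, the platelet gene of highest mean, 11.48 ± 0.11 and 11.02 ± 0.14 (adjusted p 0.52). Alox12, a lipoxygenase gene among the 3 of highest mean, had a positive change, 0.83 ± 0.28 (SE) in D + P versus C + P (adjusted p of limma 0.54) and group means of 6.98 to 7.86. Treml1 had its highest mean in D, 7.25 ± 3.90 (SD). Itga2b, Gp1ba, Gp1bb, Gp5 and Tubb1, listed but not tested, were well above background on 0 arrays, as was Gp6, which was tested. The median change of the platelet genes was -1.18 in D + P versus C + P, -0.18 in D versus C and 0.58 in C + P versus C, and that of the member genes was -0.11, -0.20 and -0.02. Over the same 2 groups the index was -0.28 to 0.20 in C + P and -0.30 to 0.12 in D + P.

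Lymphocyte, endothelial and heart muscle genes gave 0 calls of 8, 8 and 8 tested in each of the 6 contrasts, with at most 3 of a list in 1 direction at an unadjusted p under 0.05. These 3 were endothelial genes in D + P versus D, a comparison in which 8 of 8 had a positive change, with a median of 0.30, and 13.3% of all tested probes had such a p. The lymphocyte probes of highest mean, Cd4, Cd3e and Cd79b, had group means of 10.01 to 10.68, 9.31 to 9.47 and 6.18 to 7.05. The endothelial genes Egfl7, Flt1 and Kdr had 13.97 to 14.42, 12.24 to 12.84 and 12.21 to 12.96, and the muscle genes Myl2, Myh6 and Tnnt2 had 17.28 to 17.46, 17.26 to 17.46 and 16.55 to 16.92. The neutrophil probes Csf3r and Elane, with group means of 14.70 to 15.34 and 9.44 to 10.10, did not pass in any contrast.

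**Figure D4:**
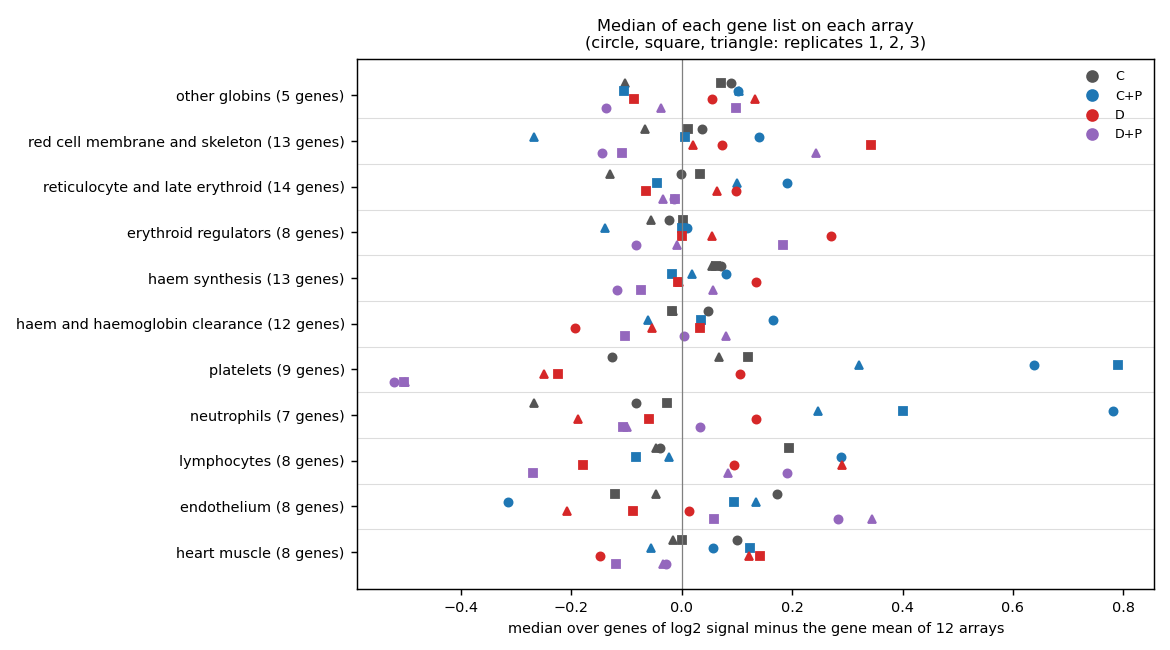
Median over the tested genes of each list of the log2 signal less the gene's mean over 12 arrays, with 1 point for each array and colours by group. Red cell lists scatter around 0 in all groups, whereas the platelet median runs from -0.52 in D + P to 0.79 in C + P and the neutrophil median is 0.25 to 0.78 in C + P.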

How the data were processed

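Total RNA of 12 hearts was labelled with Cy3 and hybridised to single-channel Agilent arrays. The deposited scanner files hold spot intensity on a linear scale, background-subtracted by Feature Extraction 12.0.0.7 per the file headers and not normalised between arrays, with mm9 coordinates. The deposited series table holds intensity that the authors quantile normalised. Here the intensity was log2 transformed, outlier spots were left out, the 12 arrays were quantile normalised and repeated spots were averaged. Tests took in the probes that Feature Extraction called positive and significant on 50% or more of the arrays in every group. limma 3.58.1 in R 4.3.3 fitted 1 mean per group over all 12 arrays, two-sided, with Benjamini-Hochberg adjustment over 30859 probes at 0.05. The methods of the study name t-tests with a Bonferroni correction, which were run as an alternative.

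The members, lists and tests were chosen with earlier results of these data known. Named are all members, listed genes past the threshold, the 3 listed genes of highest mean per list, and the 10 genes most like the index, while others (Epor, Car2, Cd163, S100a8, Gp9, Itgb3, Clec1b, Treml1, Tspo2 and red cell, platelet or neutrophil genes named for being detected or not) were chosen after their values were seen. A gene with several probes took that of highest mean. The lists are other globins, membrane and skeleton, reticulocyte and late erythroid, erythroid regulators, haem synthesis, haem and haemoglobin clearance, platelets, neutrophils, lymphocytes, endothelium and heart muscle. Alternatives were another scaling, normexp with an offset of 50, the series table, missing dim values, no filter, all probes of a gene averaged, a replicate block, array weights, slide as a block, the index as covariate, and each array left out. No arrays held identical values (highest r between 2 arrays 0.988). The fit was checked on simulated data with known changes. Promoters are RefSeq windows of GRCm38.p6.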

Additional observations from a re-analysis of the deposited data

Results flagged for a closer look

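The Ahsp probe lies outside the tested probes and gave its highest log2 signal, 6.32, on C + P replicate 1, where it was well above background, as it was on C + P replicate 3 and on 0 arrays of C. It stands here as a signal of a probe left out of the fit, above the level of the control arrays.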

How the results depend on the processing

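The median member change kept within the SD between mice (0.31) of its value under the 8 alternatives run for it, at -0.25 to -0.07 in D versus C, -0.20 to -0.03 in D + P versus C + P, -0.02 to 0.12 in C + P versus C and -0.06 to 0.14 in D + P versus D, one of which left Slc4a1 out and was chosen after seeing the data. With each array left out in turn the ranges were -0.36 to 0.04, -0.30 to -0.03, -0.08 to 0.12 and -0.12 to 0.18. Of the changes of single members 4 moved by more than their SD, those of Hba-a1 and Slc4a1 given with the genes, and many alternatives could not move them. The count of red cell genes called in the mean of both diabetes contrasts was 0, but 1 with the series table, 1 with dim values set to missing and 1 with array weights, each time Epor, at an adjusted p of 0.0465, 0.0434 and 0.0299 (0.0299 to 0.108 over all alternatives), and it was 0 without any 1 array, with Epor at 0.0546 to 0.157. It was 0 in D versus C and in D + P versus C + P under all alternatives run. The methods' t-test called 0 of these genes in all 3 contrasts, after either correction, with 4, 3 and 3 at an unadjusted p under 0.05.

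No pairing by replicate number was seen in residual correlations, which cannot show that there was none. Arrays of the same number in different groups had -0.20 to 0.20, and arrays of different numbers had -0.19 to 0.21. With every number in every group a replicate block cannot move a difference between groups (the median in D versus C is -0.20 in both fits). It left the count of red cell genes at 0, but it left Ppbp with the same change, -3.18, at an adjusted p of 0.0504.

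Signal over background limits Slc4a1, Ahsp and Ppbp, and 3 arrays a group limit the rest.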
